A study of Homo sapiens with 6 samples.

Results

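The 10 genes described here are the machinery that carries a cell from G1 into S phase: the D cyclins CCND1, CCND2 and CCND3, their kinases CDK4 and CDK6, the E cyclins CCNE1 and CCNE2 with their kinase CDK2, the retinoblastoma gene RB1, and the transcription factor gene E2F1. They are 10 of the 35554 genes in the count table and were listed by name, with earlier results of these data known. Their transcript levels were compared between parental LNCaP cells and an enzalutamide-resistant derivative, LNCaP-enzaR, with 3 libraries of each line. LNCaP is an established human cell line from a prostate cancer metastasis that depends on androgens, and enzalutamide is a drug that blocks androgen signaling. LNCaP-enzaR was selected from LNCaP by continuous culture with enzalutamide and was afterwards maintained at a lower dose. The resistant line stands for a single selection history. The sources do not state if enzalutamide was present when the cells were harvested, so selection and acute drug exposure cannot be told apart.

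Cyclin D bound to CDK4 or CDK6, and cyclin E bound to CDK2, phosphorylate the RB protein. Unphosphorylated RB binds E2F factors and holds back the genes needed for DNA replication, and phosphorylation releases them. CDK inhibitors of the CIP/KIP and INK4 families restrain these kinases, and in prostate cancer cells androgens are known to promote this G1 to S transition.

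The libraries held 77759122 to 98616465 counts, a depth at which 3 counts equal 0.0302 to 0.0382 CPM (counts scaled to 1000000 per library). Mitochondrial genes took 6.72% to 7.06% of the counts in the parental libraries and 14.7% to 15.5% in LNCaP-enzaR. Luminal prostate markers summed to 4710 to 4842 CPM in parental cells and 3005 to 3307 CPM in LNCaP-enzaR, with 5 of the 8 lower and 1 higher. Past the threshold given below, 19.5% of all genes tested were lower and 23.3% higher. Of the fibroblast markers, 6 of 7 were in the table and 4 were tested (2 higher, 1 lower). They summed to 14.7 to 17.9 CPM in parental cells and 8.21 to 8.95 CPM in LNCaP-enzaR, and THY1 held at most 2 counts in a library. COL1A1 gave most of the parental sum and was lower, at 13.4 CPM on average in parental cells and 4.29 in LNCaP-enzaR. LUM (0.425 and 1.44 CPM) and PDGFRB (0.641 and 1.73 CPM) were higher. The 6 leukocyte markers summed to at most 0.270 CPM in any library, and CD3E held 0 counts in every parental library. The part of the mitochondrial share and of the marker genes in the results below was not tested, except that the same member genes passed the threshold in a fit without the mitochondrial genes.

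Of the 10 genes, 9 were tested, and 5 were past the threshold (adjusted p of at most 0.05 in edgeR's quasi-likelihood test and a fold change of at least 1.5), all of them lower in LNCaP-enzaR: CCNE2, CDK2, CDK4, CDK6 and E2F1. CCND1, CCND3, CCNE1 and RB1 were tested but not past it, and CCND2 was too low to test. Over all 19711 genes tested, 42.7% were past the threshold, with 19.5% lower and 23.3% higher in LNCaP-enzaR, so 5 lower genes of 9 stood against a background share of 19.5%, which is a description because the list was not made blind to the data. The median log2 fold change was -0.90 over the 9 genes and 0.01 over all genes tested. The values of both lines did not overlap for 8 of the 9 genes, which says little here because 70.6% of all genes tested also had no overlap. In bulk RNA, fewer cells in a given phase of the cycle and less RNA per cell cannot be told apart.

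**Figure D1:**
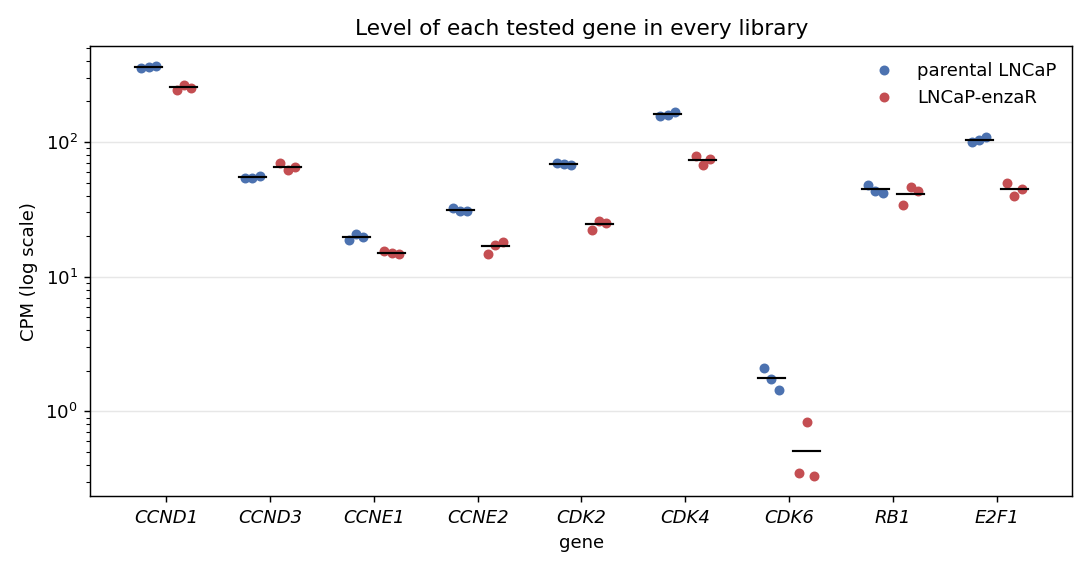
Expression of the 9 tested genes in CPM (log axis) in each of the 3 parental and 3 LNCaP-enzaR libraries, with 1 point per library and a bar at the mean of each line. The CDK2, CDK4, CDK6, CCNE2 and E2F1 points of LNCaP-enzaR all lie below those of parental cells, and the RB1 points mix.

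CCND1 (ENSG00000110092.4, chr11:69641156-69654474), the main cyclin D gene of these cells, was the most abundant of the 10 genes per kb of all exons in both lines. It measured 353, 361 and 364 CPM in the parental libraries and 245, 267 and 253 CPM in the LNCaP-enzaR libraries. Every LNCaP-enzaR library was below every parental one. Parental cells averaged 359 ± 5.81 CPM and LNCaP-enzaR 255 ± 11.009 CPM (SD over 3 libraries), which is -0.49 on the log2 scale (SE 0.0524, adjusted p = 1.12e-06). The 95% interval of -0.61 to -0.38 spans the 1.5-fold limit, which is 0.585 in size on the log2 scale. The estimate itself was under that limit, so CCND1 was not past the threshold although its difference exceeded the spread between libraries. CCND1 stood at the 96.8th percentile of protein-coding genes per length in parental cells and at the 95.4th in LNCaP-enzaR. Exons of LTO1 cover 10.4% of the exonic bases of CCND1. LTO1 was at 13.7 ± 0.250 CPM in parental cells and 7.95 ± 0.739 CPM in LNCaP-enzaR (log2 fold change -0.78, adjusted p = 2.32e-06). Its part in the CCND1 value was not tested.

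CCND3 (ENSG00000112576.13, chr6:41934934-42050357), the cyclin D gene best known from lymphoid and differentiating tissue, alone among the 9 tested genes had a positive log2 fold change. Its CPM values were 54.5, 54.4 and 56.2 in parental cells and 70.4, 61.6 and 65.0 in LNCaP-enzaR. The ranges did not overlap, and the log2 fold change was 0.26 (95% interval 0.12 to 0.39, adjusted p = 0.00254), under the fold limit. CCND2 (ENSG00000118971.9, chr12:4269771-4305353), the third D cyclin gene, held 0 counts in each parental library and 0, 2 and 3 counts in LNCaP-enzaR. Both lines were at or under a floor of 3 counts, so no fold is given.

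The make-up of the cyclin D transcripts differed between lines. Per kb of exon, CCND1 made up 88.7%, 88.9% and 88.7% of the D cyclin transcripts in the parental libraries and 80.8%, 84.0% and 82.5% in LNCaP-enzaR. All 3 LNCaP-enzaR shares were below the parental ones, by 6.34 percentage points on average (88.8% ± 0.140 against 82.4% ± 1.57, n = 3 each, exact two-sided permutation p = 0.10, the smallest that 3 against 3 libraries allow). With the length of the longest transcript in place of all exons, the share was 78.7% in parental cells and 68.7% in LNCaP-enzaR, a difference of -10.0 points. CCND1 was the predominant D cyclin transcript in every library by either length.

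CDK4 (ENSG00000135446.17, chr12:57747727-57756013), the main D cyclin kinase gene in these cells, was lower in LNCaP-enzaR. It measured 157, 159.6 and 168 CPM in parental cells and 78.8, 68.0 and 75.1 CPM in LNCaP-enzaR. The lines lay far apart, without overlap. The log2 fold change was -1.13 (SE 0.0635, adjusted p = 1.19e-09), a 2.18-fold lower level. Exons of TSPAN31, a tetraspanin gene, cover 44.2% of the exonic bases of CDK4. TSPAN31 itself was at 8.38 ± 1.03 CPM in parental cells and 15.2 ± 1.19 CPM in LNCaP-enzaR (log2 fold change 0.86, adjusted p = 3.15e-06), a change in the other direction at a far lower level than CDK4. The part of the shared exons in the CDK4 value was not tested.

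CDK6 (ENSG00000105810.10, chr7:92604921-92836573), the second D cyclin kinase gene, was scarce throughout. It held 194, 159 and 113 counts in the parental libraries (2.10, 1.75 and 1.44 CPM) and 30, 74 and 33 counts in LNCaP-enzaR (0.348, 0.838 and 0.333 CPM). The groups did not overlap, with LNCaP-enzaR replicate 2 standing above the other two. The log2 fold change of -1.81 was the most negative of the 9 genes but also the least precise (SE 0.316, 95% interval -2.48 to -1.13, adjusted p = 0.000156), and it was -2.37 without LNCaP-enzaR replicate 2. CDK4 supplied 99.7% of the summed CDK4 and CDK6 transcripts per kb in parental cells and 99.8% in LNCaP-enzaR, with overlapping libraries (exact two-sided permutation p = 0.30), so the D cyclin kinase transcripts of both lines were almost wholly CDK4.

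CCNE1 (ENSG00000105173.14, chr19:29811991-29824312) and CCNE2 (ENSG00000175305.18, chr8:94879770-94896678) encode the E cyclins, which are themselves E2F targets and activate CDK2 late in G1. CCNE1 was at 18.7, 20.9 and 19.8 CPM in parental cells and 15.4, 15.1 and 14.7 CPM in LNCaP-enzaR. Its libraries did not overlap, but the 1.31-fold lower level (log2 fold change -0.39, SE 0.0734, adjusted p = 0.000282) was under the fold limit. CCNE2 was at 32.5, 30.7 and 30.5 CPM in parental cells and 14.8, 17.3 and 18.2 CPM in LNCaP-enzaR (log2 fold change -0.90, SE 0.0813, adjusted p = 2.14e-07). Every LNCaP-enzaR library was well below the parental ones, and CCNE2 was 1.86-fold lower. Exons of other genes, mainly INTS8, cover 37.1% of the exonic bases of CCNE2. INTS8, an Integrator subunit gene, was at 65.9 ± 3.20 and 51.7 ± 5.80 CPM (log2 fold change -0.35, adjusted p = 0.00118), and its part in the CCNE2 value was not tested.

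CCNE1 made up 50.6%, 54.8% and 53.7% of the E cyclin transcripts per kb in parental cells and 65.0%, 61.0% and 59.0% in LNCaP-enzaR. All LNCaP-enzaR shares exceeded the parental ones, by 8.61 percentage points on average (53.1% ± 2.18 against 61.7% ± 3.07, n = 3 each, exact two-sided permutation p = 0.10, again the smallest possible). By the longest transcript the mean shares were 51.9% and 60.5%, and from raw counts 38.8% and 47.4%. Which E cyclin led therefore depends on the length used, while the difference between lines stayed alike. The part of the exons that CCNE2 shares with INTS8 was not tested.

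CDK2 (ENSG00000123374.11, chr12:55966781-55972789), the kinase gene that serves cyclin E and later cyclin A, had the most negative log2 fold change of the members above 1 CPM per kb. It was at 69.3, 68.7 and 67.0 CPM in parental cells and 22.1, 26.1 and 25.0 CPM in LNCaP-enzaR. The parental libraries lay close together and the LNCaP-enzaR libraries far below them, at a 2.80-fold lower level (log2 fold change -1.48, SE 0.0702, adjusted p = 1.87e-10). Only 7.31% of all genes tested had a log2 fold change as low or lower. CDK2 dropped from the 82.2nd to the 62.0th percentile of protein-coding genes per length. PMEL, the main gene whose exons overlap it (16.8% of exonic bases shared in all), was at 2.38 ± 0.421 CPM in parental cells and 4.45 ± 0.316 CPM in LNCaP-enzaR. The part of the shared exons in the CDK2 value was not tested.

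RB1 (ENSG00000139687.16, chr13:48303744-48599436), the tumor suppressor gene on which these kinases converge, showed no detectable change. Its CPM values were 48.0, 43.6 and 42.0 in parental cells and 34.2, 46.1 and 43.2 in LNCaP-enzaR. The libraries overlapped, and LNCaP-enzaR replicate 1 stood below the other 5 libraries. The log2 fold change was -0.11 (SE 0.0954, 95% interval -0.32 to 0.09, adjusted p = 0.312), an interval that excludes a 1.5-fold change in either direction. Without LNCaP-enzaR replicate 1 the value was 0.0095 (adjusted p = 0.897).

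E2F1 (ENSG00000101412.13, chr20:33675477-33686385), the activator E2F that RB binds and a target of E2F factors itself, was also lower in LNCaP-enzaR. It measured 100.2, 103 and 108 CPM in parental cells and 49.3, 40.03 and 44.7 CPM in LNCaP-enzaR. No LNCaP-enzaR library reached the lowest parental one. The level was 2.32-fold lower (103.8 ± 4.03 against 44.7 ± 4.62 CPM, log2 fold change -1.22, SE 0.0737, adjusted p = 2.64e-09). No exon of another gene overlaps those of E2F1, RB1 or CCNE1 in the annotation used.

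The promoter of E2F1 is shown because it carries binding-site letters of its own family, and that of CDK4 because it carries 3 E-boxes. Both are the 250 bases before the gene start in RefSeq (GRCh38.p14, minus strand, printed 5′ to 3′), at chr20:33686386-33686635 for E2F1 and chr12:57752311-57752560 for CDK4. In the first, capitals mark matches to the E2F-type spellings TTTCCCGC, TTTCGCGC, TTTGCCGC and TTTGGCGC on either strand, and in the second they mark CACGTG, an E-box that reads the same on both strands and that MYC and related factors are known to bind.
E2F1 upstream: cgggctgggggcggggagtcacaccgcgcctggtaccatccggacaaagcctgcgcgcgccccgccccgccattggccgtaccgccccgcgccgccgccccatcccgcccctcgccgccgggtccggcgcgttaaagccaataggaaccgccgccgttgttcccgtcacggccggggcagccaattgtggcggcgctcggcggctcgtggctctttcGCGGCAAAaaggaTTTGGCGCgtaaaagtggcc
CDK4 upstream: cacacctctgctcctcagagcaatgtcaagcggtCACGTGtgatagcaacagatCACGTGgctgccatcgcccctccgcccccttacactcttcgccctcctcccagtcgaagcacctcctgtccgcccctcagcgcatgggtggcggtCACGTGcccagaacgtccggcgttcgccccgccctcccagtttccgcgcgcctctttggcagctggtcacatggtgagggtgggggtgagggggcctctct
The E2F1 window held 2 E2F-type matches, whose 5′ ends lie 33 and 20 bases before the start, and its GC content was 72.4%. Across 35116 RefSeq windows of this length, 2.79% held at least 1 such match and 0.122% held at least 2. The CDK4 window, with a GC content of 65.6%, held no E2F-type match but 3 copies of CACGTG, at 216, 196 and 101 bases before the start. At least 1 copy stood in 6.34% of the windows and at least 3 in 0.0797%, and this search was chosen after the CDK4 sequence had been seen. Windows were examined for 6 of the 10 genes (CCND3, CCNE1, CDK4, CDK6, E2F1 and RB1), and E2F1 was the only one of these with an E2F-type match. CCNE2 was left out of this search. The E2F1 start coincides with that of the deposited table, while the CDK4 start lies 3703 bases and the RB1 start 172706 bases inside the gene as the table gives it. A match describes letters, not binding. MYC itself was at 267 ± 7.26 CPM in parental cells and 310 ± 8.59 CPM in LNCaP-enzaR (log2 fold change 0.22), under the fold limit. Its part in the CDK4 level was not tested.

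Levels were ordered per kb of all exons, and the order depends on that length. CDK4 and CCND3 have 3094 and 5761 exonic bases but longest transcripts of 1865 and 2394 bases. By the longest transcript, CDK4 in parental cells and CCND3 in LNCaP-enzaR would each stand higher. In parental cells, CCND1 led with 75.5 CPM per kb, followed by CDK4 with 52.2, E2F1 with 38.6, CDK2 with 17.6 and CCND3 with 9.55. CCNE1 (8.03), CCNE2 (7.10) and RB1 (6.93) came next, and CCNE2 and RB1 did not differ beyond their spread. CDK6 was far below them at 0.144 CPM per kb. By all exons, the first 3 kept their places in LNCaP-enzaR with 53.6, 23.9 and 16.6 CPM per kb, while CCND3 followed at 11.4. CDK2 had moved down to 6.28 CPM per kb, where it could not be separated from RB1 (6.40) or CCNE1 (6.12), and CCNE2 and CDK6 came last with 3.81 and 0.0413.

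The log2 fold changes of the cyclins were smaller in size than those of their kinases, and ratios within a library, chosen after the values had been seen, show this per library. D cyclin transcripts per CDK4 and CDK6 transcript, both per kb, were 1.64, 1.65 and 1.59 in parental cells and 2.50, 3.03 and 2.65 in LNCaP-enzaR, a 1.68-fold higher ratio. E cyclin transcripts per CDK2 transcript were 0.840, 0.874 and 0.869 in parental cells and 1.69, 1.498 and 1.57 in LNCaP-enzaR, a 1.84-fold higher ratio. The ratio of E2F1 to RB1 was 4.99, 5.65 and 6.15 in parental cells and 3.44, 2.08 and 2.48 in LNCaP-enzaR, a 2.10-fold lower value. No ratio overlapped between lines, and each reached the smallest exact two-sided permutation p of 0.10.

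**Figure D2:**
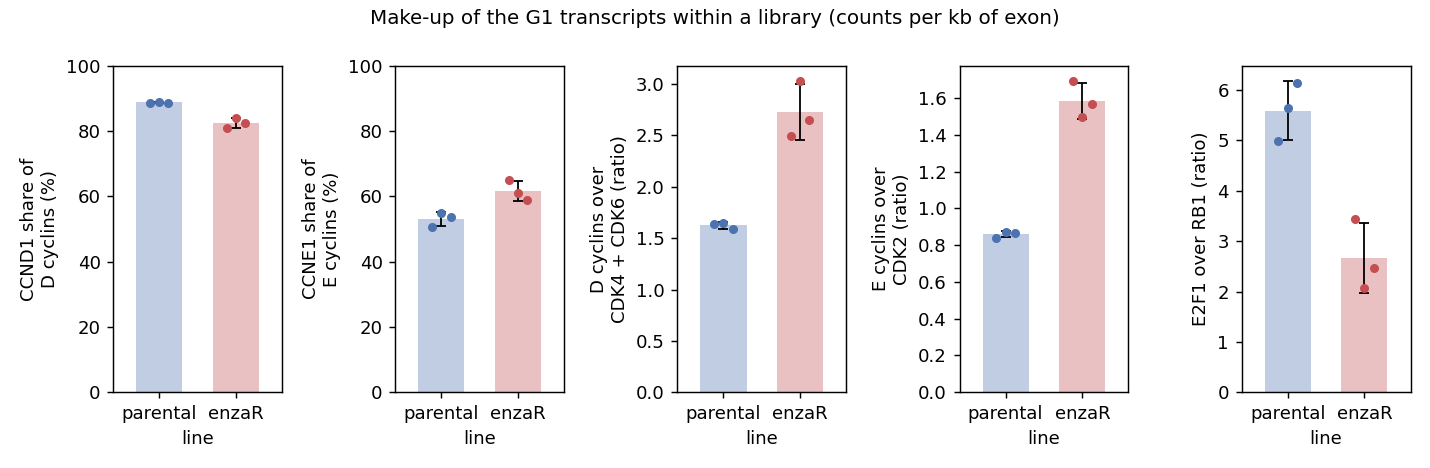
Share (%) of CCND1 among D cyclin and of CCNE1 among E cyclin transcripts, and 3 transcript ratios, from counts per kb of exon in parental LNCaP and LNCaP-enzaR. Bars are means, error bars SD and points the 3 libraries of a line, and no panel has overlapping lines.

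Genes near the members moved in both directions. The tested genes within 1 Mb of a member numbered 9 to 58, and their median log2 fold changes lay between -0.29, around CCND3, and 0.24, around CCNE1. Around CDK2 the median of 58 neighbors was -0.10, with 12 higher and 11 lower past the threshold, and around CDK4 the median of 43 neighbors was 0.07, with 9 higher and 11 lower. These counts lie near the 42.7% of all genes tested that were past the threshold. Around CCNE2, E2F1 and CDK6 the medians were -0.25, 0.13 and -0.14. CCND1 lay on a chromosome whose genes had a median of -0.27, and RB1 on one with a median of -0.28.

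Of the RB relatives, 1 was lower and 1 was not past the threshold. RBL1, which encodes p107 and is an E2F target, fell from 42.9, 41.5 and 39.5 CPM in parental cells to 12.0, 14.5 and 14.6 CPM in LNCaP-enzaR (log2 fold change -1.59, adjusted p = 5.26e-10). RBL2, which encodes p130, the pocket protein of resting cells, was at 95.7 ± 4.94 and 84.0 ± 7.97 CPM (log2 fold change -0.19, adjusted p = 0.0320), under the fold limit. Under upper-quartile scaling the adjusted p of RBL2 in the same test was 0.296. Of the 9 other E2F and DP genes, 5 were lower and 4 were not past the threshold, where 19.5% of all genes tested were lower. The 2 with the smallest p were the atypical repressors E2F8, from 25.6 ± 1.21 to 3.54 ± 0.0778 CPM (log2 fold change -2.85, adjusted p = 1.31e-12), and E2F7, from 28.3 ± 0.901 to 5.67 ± 0.422 CPM (-2.32, adjusted p = 8.27e-12).

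Of the 7 CDK inhibitor genes, 3 were higher, 2 lower and 2 not past the threshold. Among all genes tested, 23.3% were higher and 19.5% lower, so calls in both directions were common. Over the 10 gene lists described below, 6 of 94 genes were higher, and these 3 inhibitors are among the 6. No test was made of this split. CDKN1A, which encodes the CIP/KIP inhibitor p21, rose from 183, 156 and 177 CPM in parental cells to 477, 447 and 403 CPM in LNCaP-enzaR (log2 fold change 1.36, adjusted p = 8.20e-10). CDKN2B, which encodes the INK4 inhibitor p15 of CDK4 and CDK6, rose from 0.691, 1.07 and 0.878 CPM to 8.03, 7.47 and 6.50 CPM (log2 fold change 3.06, adjusted p = 5.43e-10). Neither gene had overlapping lines, and CDKN2B stayed far less abundant than CDKN1A. CDKN1C, which encodes p57, also rose but at a low level, from 0.764 ± 0.154 to 1.32 ± 0.224 CPM (log2 fold change 0.79, adjusted p = 0.00784).

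The other inhibitors were lower or under the fold limit. CDKN1B, which encodes p27, fell from 102.3 ± 1.76 to 58.0 ± 3.39 CPM (log2 fold change -0.82, adjusted p = 2.03e-08), opposite to its relative CDKN1A. CDKN2C, which encodes p18, fell from 50.9 ± 2.40 to 28.9 ± 1.04 CPM (-0.82, adjusted p = 4.79e-08). CDKN2A, which encodes p16 and ARF, gave -0.25 (adjusted p = 0.00893) and CDKN2D, which encodes p19, gave -0.28 (adjusted p = 0.0233), both under the fold limit. The CDKN2D libraries overlapped. Under upper-quartile scaling the adjusted p in the same test was 0.0954 for CDKN2A and 0.13 for CDKN2D, so neither difference was secure.

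**Figure D3:**
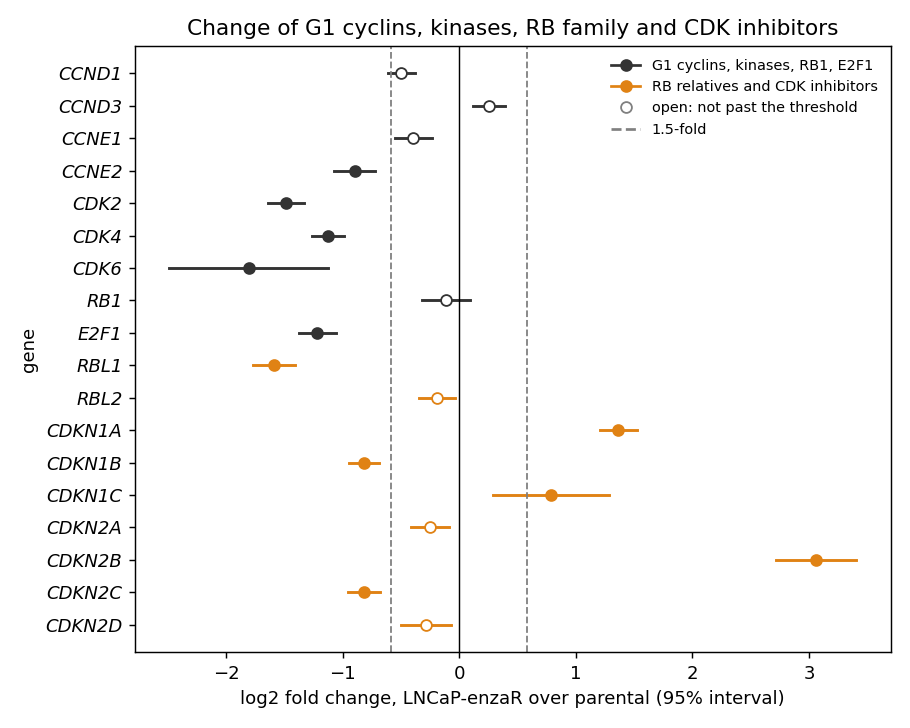
Log2 fold change of LNCaP-enzaR over parental LNCaP with 95% intervals for the 9 tested G1 genes, the RB relatives and the CDK inhibitors. Filled points are past the threshold, open points are not, dashed lines mark 1.5-fold, and CDKN1A, CDKN1C and CDKN2B are the genes past it on the higher side.

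The wider pathway was described by 10 lists of genes that act above, beside, on or after these kinases. Over these lists, 58 of 94 genes were lower, 6 higher and 30 not past the threshold, against 19.5% lower and 23.3% higher among all genes tested. The lists were written when lower expression of replication genes in LNCaP-enzaR was already known, so their counts are a description. All 24 listed G1/S targets of E2F were lower, with log2 fold changes between -2.34 and -1.005 and a median of -1.53, and together they summed to 3798 to 3821 CPM in parental and 1237 to 1281 CPM in LNCaP-enzaR libraries. TYMS, the thymidylate synthase gene, had a log2 fold change of -2.11 (adjusted p = 1.19e-12) and RRM2, which encodes the ribonucleotide reductase subunit made in S phase, -1.83 (adjusted p = 1.59e-12). An E2F-type match stood in the window of 9 of the 20 targets with a RefSeq window, and in 3.40% of all genes with one. The genes were listed as E2F targets, so this share describes the list and not its change.

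The counts that follow stand beside 19.5% lower and 23.3% higher among all genes tested. Of the 5 later cyclin and kinase genes, 4 were lower, led by CCNA2, the cyclin A gene of S phase (log2 fold change -2.35, adjusted p = 8.52e-13), and CCNB2, a mitotic cyclin gene (-1.90, adjusted p = 2.80e-12). Of the 8 genes that act on the activating or inhibitory phosphorylation of CDKs, 6 were lower. They included both CDC25A, a phosphatase gene that activates CDK2 (-2.01, adjusted p = 1.29e-11), and WEE1, a kinase gene that inhibits CDKs (-2.13, adjusted p = 3.53e-12). Among the 11 genes of cyclin and inhibitor turnover, 5 were lower and 2 higher. The smallest p-values there belonged to the CDK-binding subunit genes CKS1B (-1.86, adjusted p = 5.34e-12), which encodes a cofactor of p27 degradation, and CKS2 (-1.45, adjusted p = 3.48e-11). Of the 7 genes of the DREAM and MuvB complexes and their partners, 5 were lower, with the partners MYBL2 (-2.59, adjusted p = 1.09e-12) and FOXM1 (-2.00, adjusted p = 2.99e-11) first by p.

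**Figure D4:**
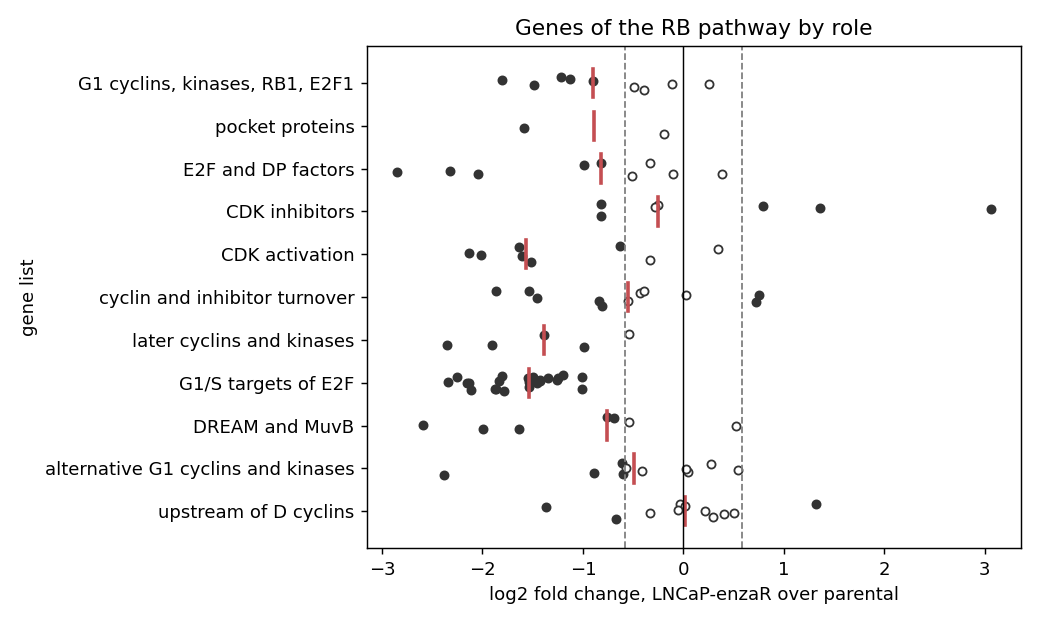
Log2 fold change of LNCaP-enzaR over parental LNCaP for the 9 tested G1 genes and 94 further genes of the pathway by role, with 1 point per gene (filled, past the threshold), a red bar at each median and dashed lines at 1.5-fold. All 24 G1/S targets of E2F lie to the left of the lower limit, and the CDK inhibitors lie on both sides.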

How the data were processed

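RNA was taken from flasks plated in triplicate, which the labels call biological replicates, so the p-values measure the spread between flasks of 1 line of each kind. The authors trimmed adapters with Cutadapt, aligned paired-end reads from polyadenylated RNA to GRCh38.p13 with STAR and GENCODE v38, and counted with featureCounts. They deposited raw counts per gene. Strand setting and treatment of multiply mapping reads are not given in the sources used here, so genes with shared exons are uncertain (also TYMS, CDKN2C, RBL2, FOXM1, CDKN2A and CDK3). GENCODE v44 served for exon length and overlap only.

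Counts were analyzed here with edgeR 4.0.16 in R 4.3.3. The steps were filterByExpr (19711 genes kept), TMM scaling and a robust quasi-likelihood F-test with no covariate and Benjamini-Hochberg adjustment over all genes tested. Genes past the threshold had an adjusted p of 0.05 or less and changed at least 1.5-fold. CPM are TMM-scaled, and intervals are 95%. Alternatives were DESeq2 1.42.0, other scalings, filters and fold limits, each library left out, and a replicate block.

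The members and lists were chosen with earlier results of these data known. Text names all members, the RB relatives, every tested CDK inhibitor and the 2 genes of smallest p per list. MYC and CDK3 were named after their values had been seen. Libraries correlated at 0.990 to 0.992 within and 0.921 to 0.926 between lines. E2F-type motifs and CACGTG were searched on both strands in 250 bases before RefSeq gene starts.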

Additional observations from a re-analysis of the deposited data

How the results depend on the processing

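The 5 member genes past the threshold stayed at 5, all lower, in DESeq2, under every other scaling and filter, with each library left out and with the replicate block. Over 15 alternative fits, 8 of 9 members and 24 of 25 other named genes kept direction and call. The exceptions were RB1, whose log2 fold change was 0.0095 without LNCaP-enzaR replicate 1 (-0.20 to 0.0095 over the libraries left out), and CCNG2, which fell below 1.5-fold under upper-quartile scaling (-0.51) and without replicate 1 of either line (-0.57 and -0.56). Most of the 25 other genes were named for a small p in the main fit, so their kept calls say little. CDK3 and MYC are not among the 25. A gene under the fold limit kept its call whatever its adjusted p, which rose above 0.05 in some fits for RBL2, CDKN2A and CDKN2D. CDK6 ranged from -2.37 to -1.56. Upper-quartile scaling moved the median of all genes by 0.10 and the higher share of calls from 54.5% to 60.9%, and no member changed direction under it. With no minimum fold, 13074 genes and 8 members were past the threshold, and with a 2-fold minimum 5561 genes and 4 members. The replicate block gave 8212 genes against 8425. Replicate numbers did not pair the libraries (correlations of deviations of -0.065, -0.00041 and -0.051). With the length of the longest transcript, the CCND1 share differed by -10.0 percentage points, and from raw counts the CDK4 share differed by 0.384 points. CCND2 held at most 3 counts in any library, which allows no fold, and low counts limit the precision of CDK6.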

Other observations

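Of 10 alternative G1 cyclin and kinase genes, 4 were lower and 6 were not past the threshold, with a median log2 fold change of -0.49. Among all genes tested, 42.7% were past the threshold in either direction and 19.5% were lower. CDK14, a kinase gene of the cyclin Y family of complexes, fell from 58.9 to 31.8 CPM on average (-0.89, adjusted p = 1.05e-07), and CCNG2, a cyclin gene known from arrested cells, was at 68.1 and 44.4 CPM (-0.62, adjusted p = 2.33e-06). The call of CCNG2 was lost under upper-quartile scaling (-0.51) and without replicate 1 of either line (-0.57 and -0.56). CDK3, chosen after its values were seen, is counted among the 4 on 14, 30 and 9 counts in parental cells and 10, 0 and 0 in LNCaP-enzaR, so its lines overlap at very low counts. Of the exonic bases of CDK3, 91.4% lie in exons of TEN1-CDK3, which held 60, 45 and 46 counts in parental cells and 41, 20 and 30 in LNCaP-enzaR, so reads of both cannot be told apart.

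Of 11 genes known to act upstream of the D cyclins, 1 was higher, 2 were lower and 8 were not past the threshold, with a median of 0.02. That is fewer called than the 42.7% over all genes tested, as a description of these 11 genes. JUN, an AP-1 gene that can drive CCND1, rose from 65.0 to 162 CPM (log2 fold change 1.32, adjusted p = 1.01e-10), beside the -0.49 of CCND1. EIF4EBP1, which encodes a repressor of cap-dependent translation, fell from 157 to 61.1 CPM (-1.36, adjusted p = 8.79e-11).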
